A study of Homo sapiens with 9 samples.

Results

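HSPA6 and 9 other chaperone genes of the heat shock response (DNAJA1, DNAJB1, DNAJB4, BAG3, HSPH1, HSP90AA1, HSP90AB1, HSPD1 and HSPE1) were followed across 3 groups of Daudi cells, a Burkitt lymphoma B-cell line that carries a MYC translocation. They are 10 of the 19775 genes with a probe set of their own on the array. Each gene is represented by the probe set annotated with its symbol alone that had the highest mean signal over the 9 arrays. All 10 passed the filter on low signal, which left 11250 genes for testing. The groups were Ctrl-sh (a control shRNA), Slc7a5-sh (an shRNA against SLC7A5, an amino acid transporter) and C-Myc-sh (an shRNA against MYC), with 3 arrays each. All cells, the controls included, were infected and then kept in puromycin for 48 h. The sequences and the number of hairpins per target, and whether the replicates came from separate infections, are not given in the labels, so a p-value measures the spread between these arrays. The study asked how MYC and amino acid transport act on each other in such tumour cells.

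The heat shock response is the transcriptional programme with which cells meet misfolded protein. HSF1, its main transcription factor, is held inactive by chaperones, and when these are drawn away by unfolded protein it forms trimers and binds heat shock elements, arrays of the unit nGAAn in alternating orientation. The products work as a machine: J-domain proteins (the DNAJ genes) hand substrates to HSP70 and start its ATP hydrolysis, exchange factors such as BAG3 and HSPH1 release the nucleotide again, and HSP90 finishes the folding of kinases and receptors. HSPD1 and HSPE1 form the folding chamber of mitochondria. HSPA6 is a strictly inducible HSP70 that is nearly silent in unstressed cells, whereas HSP90AB1, HSPD1 and HSPE1 are abundant in growing cells. Transformed cells often depend on this system.

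HSPA6 was selected on its measured change in Slc7a5-sh against Ctrl-sh, and the other 9 genes were set beside it as HSF1-driven chaperones, with results of these arrays known. Changes in Slc7a5-sh and between both knockdowns are therefore descriptions without a test. The 9 other genes were tested in C-Myc-sh against Ctrl-sh. All signals are MAS5 values on the log2 scale, and a change is the difference of 2 group means on that scale, with its standard error (SE) or 95% confidence interval from the limma fit. The signal level of one gene was not set against that of another.

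The RefSeq promoter windows of the 10 genes (build GRCh38.p14, 250 bases before to 50 after each start, 17 windows in all) were searched for heat shock elements of 3 units, that is GAANNTTC continued by NNGAA, or TTCNNGAA continued by NNTTC, on both strands. Each such match also contains the shorter 2-unit forms GAANNTTC and TTCNNGAA. The sequences are shown because they are the known HSF1-binding grammar of this gene group; capitals mark the units.
HSPA6, chr1:161524440-161524539, plus strand, the 100 bases before the start: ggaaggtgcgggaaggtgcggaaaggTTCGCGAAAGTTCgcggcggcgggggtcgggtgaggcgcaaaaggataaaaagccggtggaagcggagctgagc
HSP90AA1, chr14:102087111-102087140, minus strand: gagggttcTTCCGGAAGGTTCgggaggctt
HSP90AB1, first match, chr6:44247770-44247799, plus strand: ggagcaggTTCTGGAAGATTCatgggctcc
HSP90AB1, second match, chr6:44247823-44247852, plus strand: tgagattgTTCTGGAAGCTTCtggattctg
HSPD1, chr2:197500061-197500090, minus strand, 2 overlapping matches: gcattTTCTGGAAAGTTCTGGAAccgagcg
DNAJB1, first 2-unit match, chr19:14518459-14518482, minus strand: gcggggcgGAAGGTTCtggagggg
DNAJB1, second 2-unit match, chr19:14518429-14518452, minus strand: gggctctgGAAGCTTCcgccggac
DNAJB4, 2-unit match, chr1:78004833-78004856, plus strand: atttgctgTTCTAGAAagtacaga

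A 3-unit element was present in 5 of the 17 windows, those of HSPA6, DNAJA1, HSP90AA1, HSP90AB1 and HSPD1, against 0.49% of the 35116 RefSeq promoter windows of the same length. In DNAJA1 it lay just after the start and is not printed. Either 2-unit form was found in 8 of the 17 windows and in 13.5% of all windows. In HSPA6 the 3-unit element began 74 bases before the start, and a separate GAANNTTC lay 180 bases before it. HSPD1 and HSPE1 are divergent neighbours whose starts lie 104 or 538 bases apart, depending on the HSPD1 start. The HSPD1 element lay 294 bases upstream of the HSPE1 start, outside the window searched for HSPE1. The windows of DNAJB1 and DNAJB4 held 2-unit matches but no 3-unit match, and those of BAG3, HSPH1 and HSPE1 held neither. An absent match says only that these letters are not in the windows. The genes were picked as heat shock genes, so these shares describe them.

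**Figure D1:**
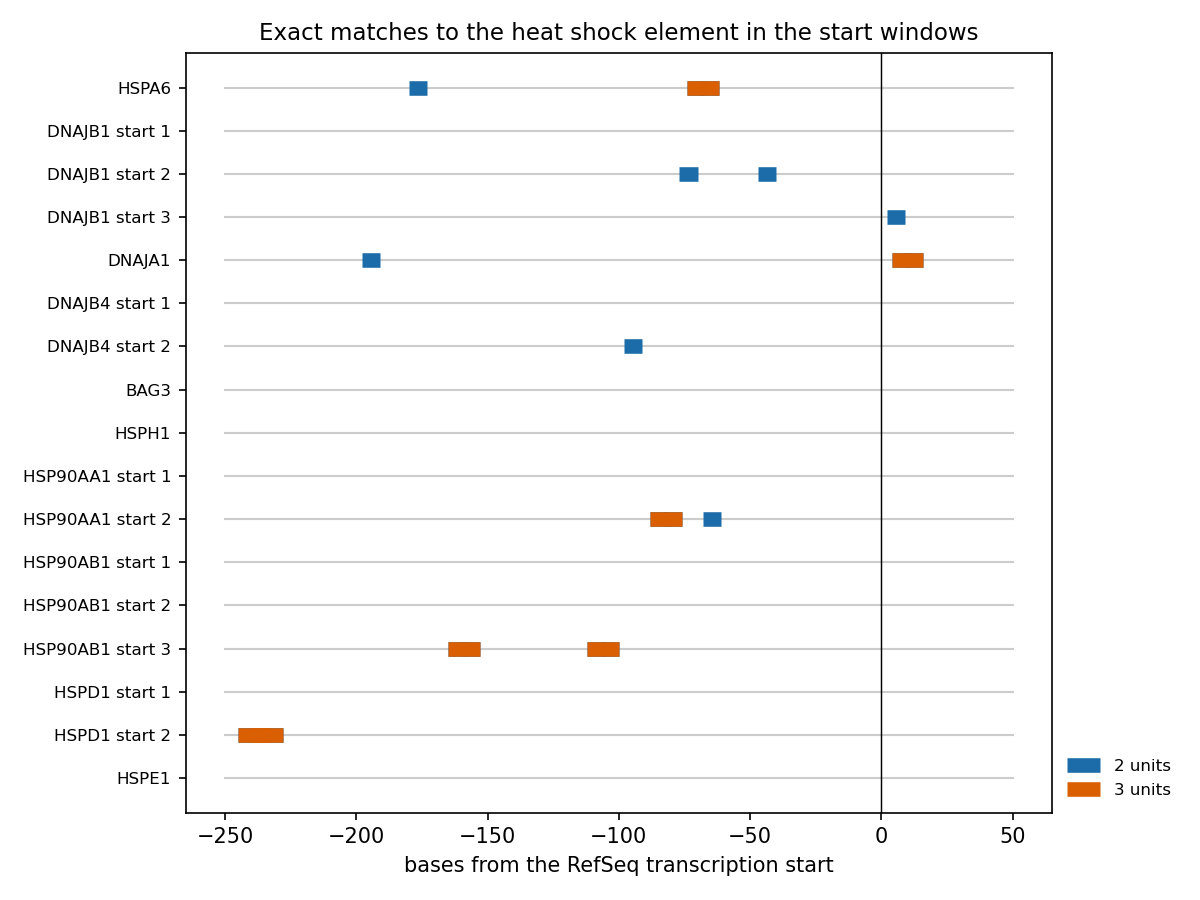
Position of heat shock element matches in the promoter windows of the 10 genes, in bases from the transcription start (x axis); each row is a window, orange marks are 3-unit matches and blue marks 2-unit matches. Orange marks stand in 5 of the 17 windows, among them that of HSPA6.

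Each targeted gene fell under its own shRNA, SLC7A5 to 80.0% and MYC to 46.9% of the Ctrl-sh signal. SLC7A5 was 12.21 ± 0.15 (SD, n = 3) in the controls, 11.89 ± 0.06 under its own shRNA and 11.80 ± 0.03 under the MYC shRNA, and fell in both knockdowns (limma, adjusted p = 0.00414 and 0.000186). MYC was 13.22 ± 0.05, 12.87 ± 0.07 and 12.13 ± 0.01 and also fell in both (limma, adjusted p = 0.000381 and 4.7e-10). Of 10 B-cell markers 9 were measured, and all 9 lay above the filter level of 5.77 in each group, while at most 3 of 10 T and NK, 1 of 8 myeloid and 5 of 10 epithelial and fibroblast markers did. The B-cell markers were not constant: 1 was called higher and 5 lower in Slc7a5-sh (median -0.30), and 3 higher and 4 lower in C-Myc-sh, with VPREB3 at 12.83, 11.59 and 10.33 in the 3 groups; their part in the chaperone changes was not tested. Arrays of a group correlated at 0.972 to 0.977 over the 11250 tested genes. Of all tested genes, 25.3% were called in Slc7a5-sh against Ctrl-sh, 54.9% in C-Myc-sh against Ctrl-sh and 49.5% between the knockdowns, at an adjusted p under 0.05. In C-Myc-sh 3234 genes were called higher and 2944 lower than in Ctrl-sh; with each array centred on its median, which lowered each C-Myc-sh change by 0.13, the split was 2451 to 3572. Between the knockdowns it moved from 2743 higher and 2826 lower to 1978 and 3390.

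HSPA6, the inducible HSP70, had the highest change of any tested gene in Slc7a5-sh. Its signals were 5.87, 5.89 and 6.18 in the Ctrl-sh arrays, 9.71, 9.92 and 10.25 in the Slc7a5-sh arrays, and 8.18, 8.12 and 8.45 in the C-Myc-sh arrays. The control signals lay barely above the filter level, and no array of one group reached the range of another. The group means were 5.98 ± 0.18, 9.96 ± 0.27 and 8.25 ± 0.17 (SD, n = 3). HSPA6 was thus higher by 3.98 in Slc7a5-sh (SE 0.20, 15.8-fold), the change it was selected on. In C-Myc-sh it was higher than in Ctrl-sh by 2.27 (SE 0.20, 4.83-fold) and lower than in Slc7a5-sh, with a log2 change of -1.71. A control signal near background makes the fold depend on that background. Of the 11250 tested genes, 0 had a higher change in Slc7a5-sh and 140 had one in C-Myc-sh.

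The second HSPA6 probe set gave the same order of groups. It read 5.99, 5.08 and 6.18 in the controls, 8.98, 9.18 and 8.97 in Slc7a5-sh, and 7.34, 7.71 and 7.24 with C-Myc-sh. Its changes were 3.29 (9.79-fold) and 1.68 (3.20-fold), smaller than those of the first probe set. Both probe sets may also read HSPA7, a nearly identical HSP70 pseudogene beside HSPA6, so the signal cannot be assigned to HSPA6 transcripts alone. The order Ctrl-sh, C-Myc-sh, Slc7a5-sh with no overlap between arrays was found in 96 of 11250 tested genes, or 0.853%. HSPA6 was the single one of the 10 chaperones among them. Its place there rests in part on the Slc7a5-sh change that it was selected on.

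**Figure D2:**
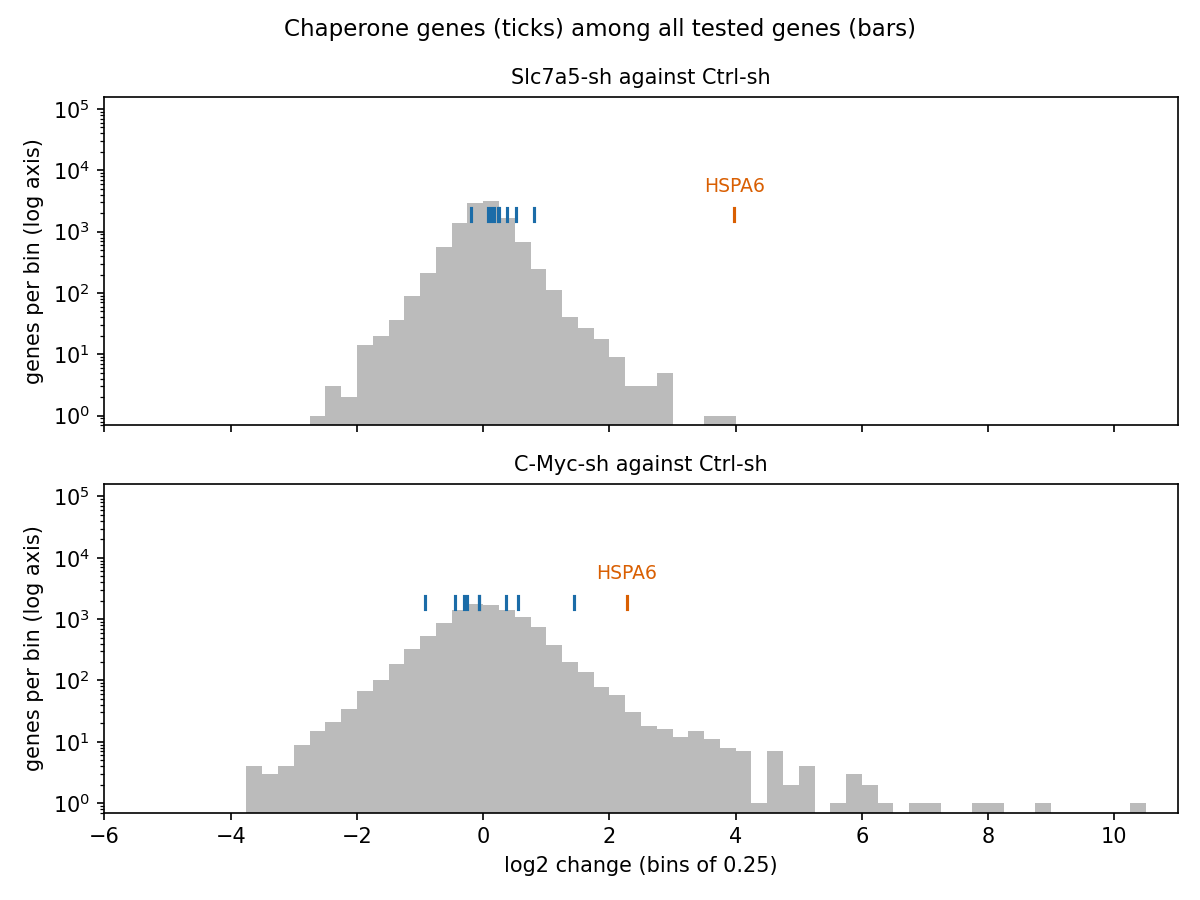
Log2 changes of all 11250 tested genes (grey bars, bins of 0.25, y axis on a log scale as genes per bin) in Slc7a5-sh and C-Myc-sh against Ctrl-sh, with ticks for the 10 chaperone genes and HSPA6 in orange. HSPA6 lies to the right of all other tested genes in Slc7a5-sh, at 3.98, while the other 9 genes lie between -0.20 and 0.81.

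The other chaperones were far from this size. In C-Myc-sh against Ctrl-sh, the tested comparison, 3 of the 9 rose (DNAJB4, DNAJB1 and DNAJA1), 4 fell (HSPE1, HSP90AB1, HSPD1 and HSP90AA1) and 2 did not pass (BAG3 and HSPH1). The shares, 33.3% higher and 44.4% lower, stood beside 28.7% and 26.2% of all tested genes; the count of risers is near that background. The median change of the 9 was -0.07, against 0.04 over all tested genes. In Slc7a5-sh against Ctrl-sh, 6 of the 9 had arrays that lay wholly above those of Ctrl-sh and 1 had arrays wholly below, where 21.8% and 18% of all tested genes did so. Their median change there was 0.23, against 0.03. In C-Myc-sh 3 of the 9 had arrays wholly above Ctrl-sh and 5 wholly below, where 33.2% and 29.1% of all tested genes did. Set directly against Slc7a5-sh, the C-Myc-sh arrays were wholly higher for 2 of the 9 and wholly lower for 6, where 28.8% and 27.7% were; this is a description. The comparisons share arrays.

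**Figure D3:**
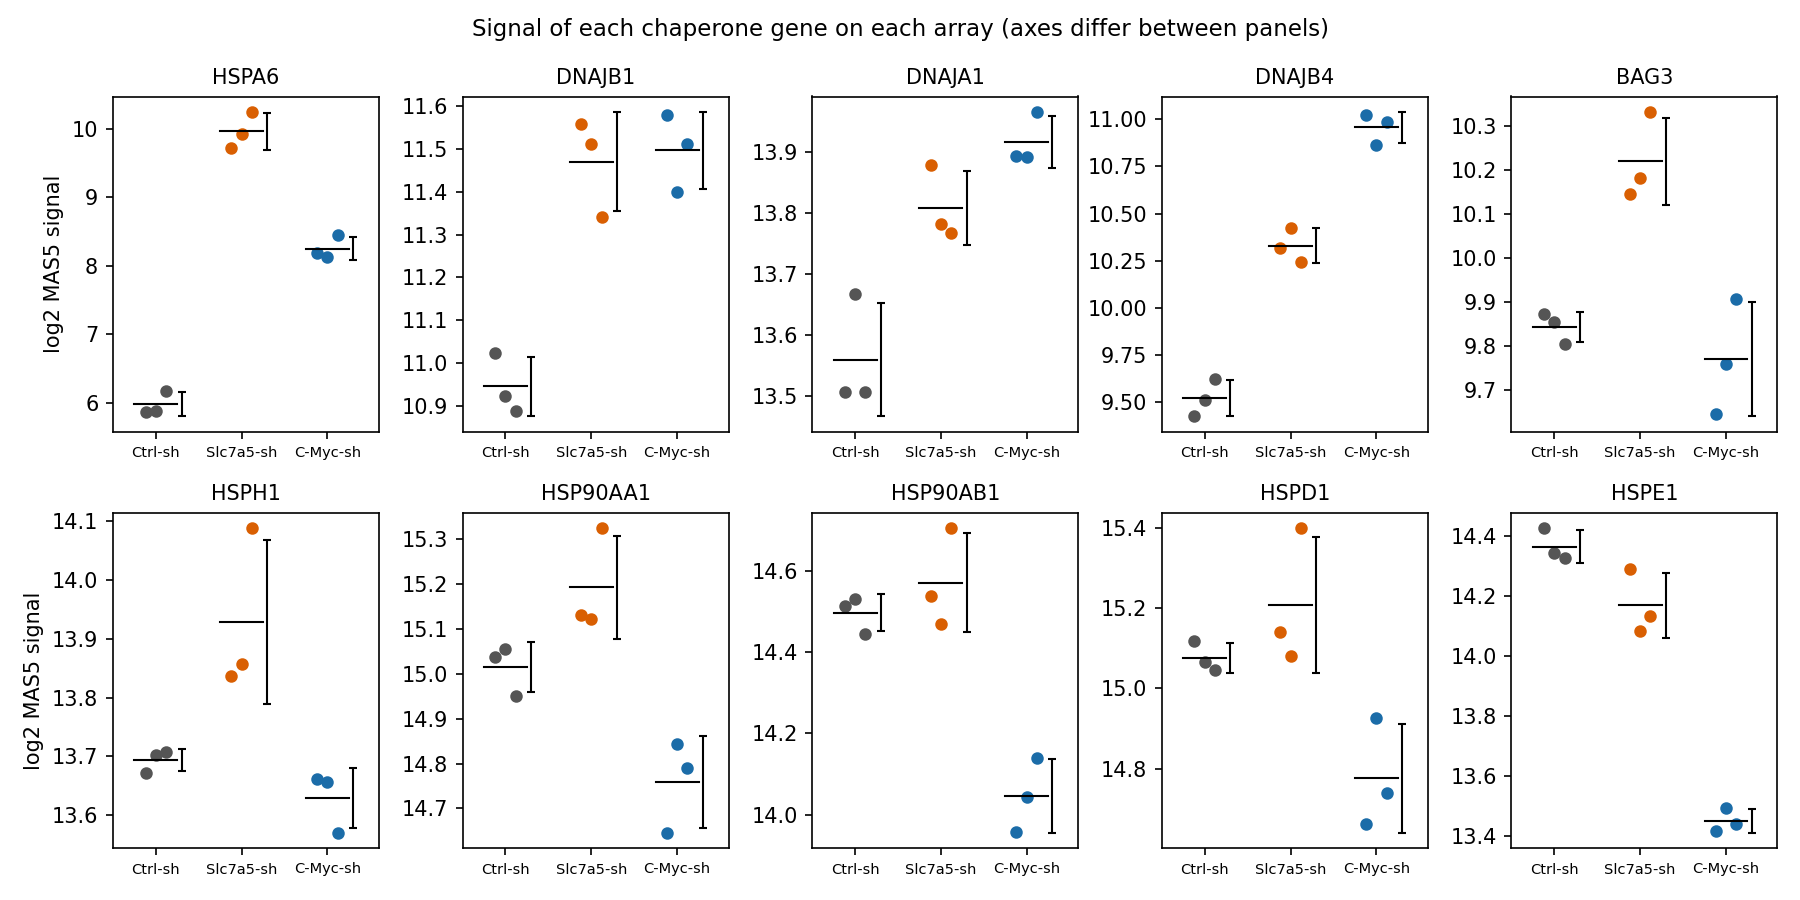
MAS5 log2 signal of the 10 chaperone genes on each array (y axis), by group (x axis); points are arrays, lines group means and bars the SD of 3 arrays. HSPA6 spans 5.87 to 10.25, DNAJB4 climbs from Ctrl-sh through Slc7a5-sh to C-Myc-sh, and HSPE1 is lowest in C-Myc-sh.

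The 3 J-domain genes were higher in both knockdowns. DNAJB1, the partner that drives HSP70 to disaggregate protein and a classical HSF1 target, read 11.02, 10.92 and 10.89 in the controls, 11.56, 11.51 and 11.34 in Slc7a5-sh, and 11.58, 11.40 and 11.51 with C-Myc-sh. All 6 knockdown arrays lay above all control arrays, and the knockdowns overlapped each other. The change was 0.53 in Slc7a5-sh against 0.55 with C-Myc-sh (SE 0.08; limma, adjusted p = 1.96e-05). The direct difference between the knockdowns was 0.03 (SE 0.08).

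DNAJA1, a constitutive cytosolic J-domain protein, read 13.51, 13.67 and 13.51 in the controls, 13.88, 13.78 and 13.77 in Slc7a5-sh, and 13.89, 13.89 and 13.97 with C-Myc-sh. The 3 groups did not overlap, though the steps were small. DNAJA1 was higher by 0.25 in Slc7a5-sh and rose by 0.36 in C-Myc-sh (SE 0.06; limma, adjusted p = 7.53e-05).

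DNAJB4, a close relative of DNAJB1, had the largest changes of the 3, with the knockdowns in the other order than for HSPA6. It read 9.43, 9.51 and 9.62 in the controls, 10.32, 10.43 and 10.24 in Slc7a5-sh, and 11.02, 10.86 and 10.98 with C-Myc-sh. No array overlapped between groups, and C-Myc-sh was highest. The change was 0.81 in Slc7a5-sh against 1.44 with C-Myc-sh (2.71-fold, SE 0.09; limma, adjusted p = 4.45e-09). The order Ctrl-sh, Slc7a5-sh, C-Myc-sh without overlap, shared by DNAJB4 and DNAJA1, was found in 7.72% of tested genes. The second probe sets of DNAJB1, DNAJA1 and DNAJB4 changed in the same direction as the first in both knockdowns.

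The exchange factors BAG3 and HSPH1 did not pass the test in C-Myc-sh. BAG3, which links HSP70 to small heat shock proteins and to selective autophagy, read 9.87, 9.85 and 9.80 in the controls, 10.15, 10.18 and 10.33 in Slc7a5-sh, and 9.65, 9.76 and 9.91 with C-Myc-sh. The Slc7a5-sh arrays stood above the other 6, whose groups overlapped. BAG3 was higher by 0.38 in Slc7a5-sh (SE 0.10), while its change in C-Myc-sh was -0.07 (95% interval -0.28 to 0.14, limma, adjusted p = 0.556).

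HSPH1, an HSP110 that acts as exchange factor and holdase, read 13.67, 13.70 and 13.71 in the controls, 13.84, 13.86 and 14.09 in Slc7a5-sh, and 13.66, 13.66 and 13.57 with C-Myc-sh. Its change was 0.23 in Slc7a5-sh against -0.06 with C-Myc-sh (95% interval -0.20 to 0.07; limma, adjusted p = 0.412). The 3 HSPH1 probe sets did not agree: their changes were 0.23, 0.00 and -0.28 in Slc7a5-sh, while with C-Myc-sh they were -0.06, -0.11 and -0.53. A direction for HSPH1 therefore depends on the probe set, and without Slc7a5-sh replicate 3 the Slc7a5-sh change of the first was 0.15. In C-Myc-sh it also depends on the scaling, with 0.15 after quantile normalization (limma, adjusted p = 0.0308).

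**Figure D4:**
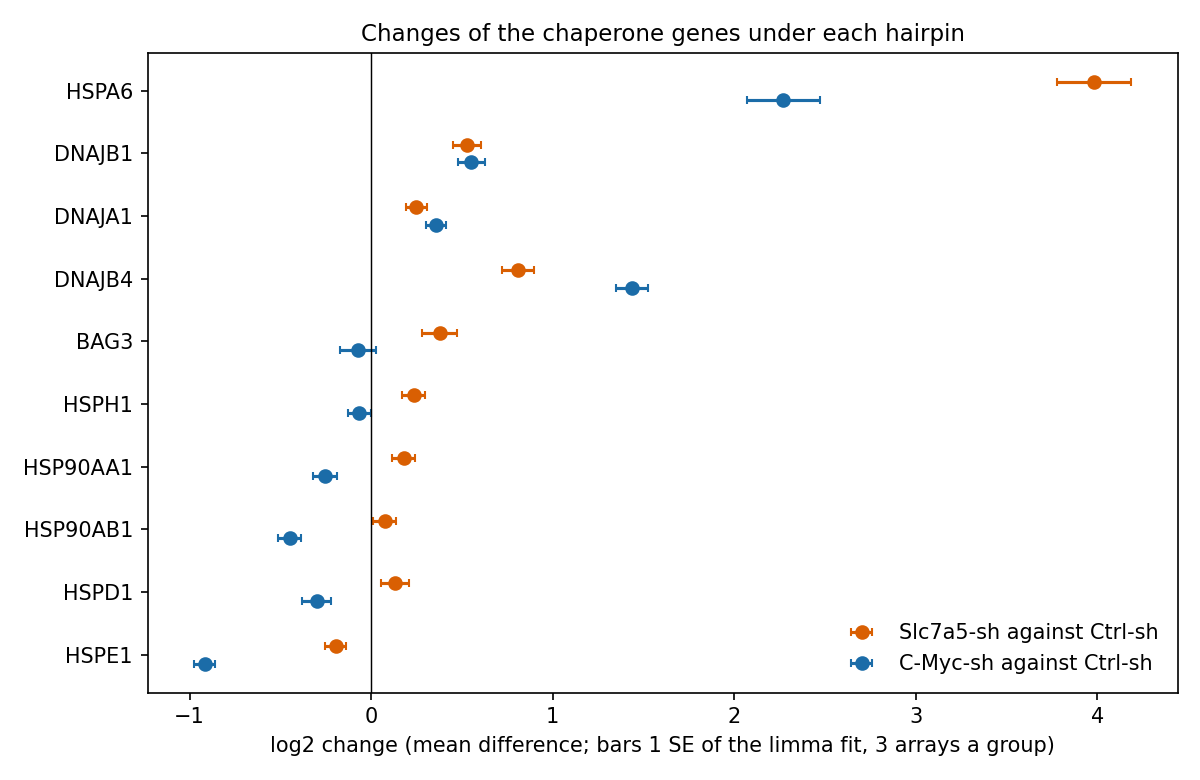
Log2 change of each chaperone gene against Ctrl-sh (x axis) in Slc7a5-sh and C-Myc-sh; points are differences of group means and bars 1 SE from the limma fit. HSPA6 lies at 3.98 and 2.27, DNAJB4 at 0.81 and 1.44, and the HSP90 and mitochondrial genes lie below 0 in C-Myc-sh; for HSPH1 the sign in C-Myc-sh turns with quantile normalization.

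The cytosolic HSP90 genes fell in C-Myc-sh. HSP90AA1, the stress-inducible form, read 15.04, 15.05 and 14.95 in the controls, 15.13, 15.12 and 15.33 in Slc7a5-sh, and 14.65, 14.84 and 14.79 with C-Myc-sh. Slc7a5-sh was the highest group and C-Myc-sh the lowest, with no overlap. The fall in C-Myc-sh was a change of -0.26 (SE 0.06; limma, adjusted p = 0.00369), and the change in Slc7a5-sh was 0.18, which became 0.11 without Slc7a5-sh replicate 3. HSPH1 and HSP90AA1 were in the order C-Myc-sh, Ctrl-sh, Slc7a5-sh without overlap, like 3.11% of tested genes.

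HSP90AB1, the constitutive form, read 14.51, 14.53 and 14.44 in the controls, 14.54, 14.47 and 14.70 in Slc7a5-sh, and 13.96, 14.04 and 14.14 with C-Myc-sh. Ctrl-sh and Slc7a5-sh overlapped and C-Myc-sh lay below both. The change was 0.07 in Slc7a5-sh (SE 0.06), which became 0.0072 without Slc7a5-sh replicate 3. In C-Myc-sh the change was -0.45 (SE 0.06, limma, adjusted p = 2.71e-05). All 4 probe sets of HSP90AA1 gave changes between -0.24 and -0.48 in C-Myc-sh, and the 3 of HSP90AB1 between -0.45 and -0.69.

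The mitochondrial pair also fell in C-Myc-sh, HSPE1 by more. HSPD1 (HSP60) read 15.12, 15.07 and 15.04 in the controls, 15.14, 15.08 and 15.40 in Slc7a5-sh, and 14.66, 14.93 and 14.74 with C-Myc-sh. Ctrl-sh and Slc7a5-sh overlapped, and the change in Slc7a5-sh, 0.13, was 0.03 without Slc7a5-sh replicate 3. The change in C-Myc-sh was -0.30 (SE 0.08; limma, adjusted p = 0.00471). The call was lost when its 5 probe sets, 2 of them below the filter level, were averaged (-0.13, adjusted p = 0.655), and without probe sets ending in _s_at or _x_at (-0.51, adjusted p = 0.0526).

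HSPE1 (HSP10), the lid of the HSPD1 chamber, read 14.43, 14.34 and 14.33 in the controls, 14.29, 14.08 and 14.13 in Slc7a5-sh, and 13.42, 13.49 and 13.44 with C-Myc-sh. The groups did not overlap, with C-Myc-sh at 53.0% of the Ctrl-sh signal. The change was -0.92 in C-Myc-sh (SE 0.06; limma, adjusted p = 5.56e-09) and -0.20 in Slc7a5-sh. HSPE1 was the single chaperone of the 10 whose Slc7a5-sh arrays all lay below Ctrl-sh. This order of groups was found in 7.02% of tested genes.

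Slc7a5-sh replicate 3 was the highest Slc7a5-sh array for HSPA6, BAG3, HSPH1, HSP90AA1, HSP90AB1 and HSPD1. The highest signal on each array was 15.32 to 15.68, and HSP90AA1 and HSPD1 read 14.65 to 15.40 over the arrays; the part of this in their changes was not tested. Over all 25 probe sets of the 10 genes, 23 lay above the filter level. Of these, 14 had Slc7a5-sh arrays wholly above Ctrl-sh and 1 wholly below, where 18.1% and 16.7% of all 27307 probe sets above that level did. The 14 include both probe sets of HSPA6, which was selected on this comparison. A gene with several probe sets counts more than once, so these counts are descriptions. For C-Myc-sh the counts were 8 above, a share near the 31.1% of all such probe sets, and 13 below, where 24.7% were.

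The genes with the profile most like HSPA6 were sought among genes with a probe set of their own. By Pearson correlation of log2 signals over the 9 arrays, given as a description because the arrays fall into 3 groups, the 6 highest were ZFAS1 (0.986, a host gene of small nucleolar RNAs), PLRG1 (0.981, a spliceosome component), STAG1 (0.979, a cohesin subunit), RNA45SN5 (0.978, a ribosomal RNA precursor), IQCH-AS1 (0.978, an antisense RNA) and CSNK1A1 (0.975, a casein kinase). RNA45SN5 was 10.16, 11.93 and 11.01 in the controls, in Slc7a5-sh and in the MYC knockdown. Probe sets with several symbols were outside this ranking; the one annotated with both HSPA1B and HSPA1A, the inducible HSP70 pair, correlated with HSPA6 at 0.981, and one that also carries HSPA1L at 0.963. A further HSPA1B and HSPA1A probe set, below the filter level, correlated at 0.13. Among the chaperones the correlation with HSPA6 was 0.83 for DNAJB1, 0.70 for BAG3, 0.67 for DNAJA1, 0.63 for HSPH1, 0.62 for DNAJB4, 0.32 for HSP90AA1, 0.20 for HSPD1, 0.06 for HSP90AB1 and -0.29 for HSPE1. All these correlations rest in part on the Slc7a5-sh change that HSPA6 was selected on.

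The rest of the pathway was described through 73 further genes, of which 66 had a probe set of their own and 53 were tested. HSPA1A, HSPA1B, HSPA8 and HSF2 shared their probe sets with other symbols or had none alone, and were not analysed as genes here. In Slc7a5-sh 16 of the 53 rose and 6 fell (30.2% and 11.3%, where 14.3% and 11% of all tested genes did), with a median of 0.05. When the probe sets of each gene were averaged 7 rose, where 795 of all 10176 genes tested that way did. In the main fit 1605 of all 11250 genes rose. Pathway genes that fell numbered 3 without any one of Ctrl-sh replicates 1 and 2 and Slc7a5-sh replicates 1 and 2. Of all 11250 genes 941 to 1040 fell there, against 1238 in the main fit. In C-Myc-sh 11 of the 53 rose and 21 fell (20.8% and 39.6%, where 28.7% and 26.2% did), with a median of -0.14. Against Slc7a5-sh, C-Myc-sh had 9 higher and 25 lower (17.0% and 47.2%, where 24.4% and 25.1% did), with a median of -0.23. HSF1 itself was 8.12 ± 0.31, 8.20 ± 0.37 and 7.68 ± 0.55, and its changes of 0.09 and -0.43 did not pass (limma, adjusted p = 0.854 and 0.216).

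Among 16 further J-domain genes, 7 rose and 1 fell in Slc7a5-sh, and 6 rose and 3 fell in C-Myc-sh (43.8%, 6.25%, 37.5% and 18.8%). Of all tested genes 14.3% rose and 11% fell in Slc7a5-sh, and 28.7% and 26.2% in C-Myc-sh, so the C-Myc-sh counts are not far from that background. DNAJB2, which presents ubiquitylated clients, rose by 1.02 and 1.01 (limma, adjusted p = 0.000162 and 2.71e-05). DNAJB9, a J-domain protein of the endoplasmic reticulum, rose by 0.85 and 1.49 (limma, adjusted p = 4.68e-06 and 6.14e-10), with 10.61, 10.41 and 10.72 in the controls, 11.47, 11.39 and 11.43 in Slc7a5-sh, and 12.09, 12.02 and 12.11 with C-Myc-sh. DNAJB14 rose by 0.88 in C-Myc-sh. DNAJC10, a reductase of the endoplasmic reticulum, fell by 0.25 and 0.61, calls that were lost with the mean of its probe sets. DNAJB12 rose by 0.82 in Slc7a5-sh (limma, adjusted p = 0.0292), but the mean of its probe sets gave -0.27. Its call was also lost without the eBayes trend (adjusted p = 0.0778), without Ctrl-sh replicate 1 (0.70) or 2 (0.74) and without Slc7a5-sh replicate 2 (0.87) or 3 (0.67).

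The 7 tested genes of the HSP70 family moved in both directions: 2 rose and 1 fell in Slc7a5-sh, and 1 rose and 4 fell in C-Myc-sh. Of all tested genes 14.3% and 11% did so in Slc7a5-sh, and 28.7% and 26.2% in C-Myc-sh. HSPA13, a microsomal HSP70, rose by 0.62 in Slc7a5-sh against 1.05 with C-Myc-sh (limma, adjusted p = 5.18e-05 and 2.11e-08). HSPA2 fell by 0.81 in Slc7a5-sh against 0.43 with C-Myc-sh (limma, adjusted p = 0.000946 and 0.0205), the latter not called without Ctrl-sh replicate 2 (-0.33) or C-Myc-sh replicate 3 (-0.30). HSPA5 (BiP) and HSPA9 (mortalin) fell by 0.27 and 0.25 in C-Myc-sh, and both calls were lost under quantile normalization (-0.06 and -0.03). That of HSPA9 was also lost with the mean of its probe sets (-0.16, limma, adjusted p = 0.237). HSPA4 rose by 0.36 in Slc7a5-sh, where its value was -0.15 without probe sets ending in _s_at or _x_at, and fell by 0.22 in C-Myc-sh, a call lost under quantile normalization (-0.09) and without Ctrl-sh replicate 3 (-0.17). HSPA14 and HSPA4L did not pass in either knockdown, with changes of -0.08 and 0.07 in Slc7a5-sh and -0.19 and 0.15 in C-Myc-sh.

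Several exchange factors and HSP90 partners fell in C-Myc-sh. Of 9 HSP70 exchange factors and related co-chaperones, 1 rose and 6 fell there, and 0 rose and 2 fell in Slc7a5-sh. Of all tested genes 28.7% and 26.2% did so in C-Myc-sh, and 14.3% and 11% in Slc7a5-sh. The 6 include STUB1, a co-chaperone that is not an exchange factor. Its fall of 0.33 in C-Myc-sh was not called under quantile normalization (-0.11). BAG1 fell by 1.12, GRPEL1, the mitochondrial exchange factor, by 1.09, and BAG2 by 0.97 (limma, adjusted p = 3.52e-08, 7.07e-08 and 1.99e-06), whereas SIL1, the exchange factor of BiP, rose by 1.08. Of 13 HSP90 paralogs and co-chaperones 0 rose and 7 fell in C-Myc-sh, against 2 and 1 in Slc7a5-sh (15.4% and 7.69%), which is near the background of 14.3% and 11%; the C-Myc-sh background was 28.7% and 26.2%. FKBP4, an immunophilin of steroid receptor complexes, fell by 1.42 and FKBP5 by 1.15 (limma, adjusted p = 5.67e-09 and 2.3e-10). TRAP1, the mitochondrial HSP90, read 12.12, 12.17 and 12.06 in the controls, 11.71, 11.77 and 12.05 in Slc7a5-sh, and 10.10, 9.99 and 9.96 with C-Myc-sh. It fell by 2.10 in C-Myc-sh (limma, adjusted p = 5.97e-11), but the mean of its probe sets gave -0.51 and no call.

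Of the 6 genes that fell in Slc7a5-sh, all but HSPA2 lost their call under at least 1 of the alternatives run. BAG1 fell by 0.40 (limma, adjusted p = 0.00317), and the call was lost with the mean of its probe sets (adjusted p = 0.0726) and without those ending in _s_at or _x_at (adjusted p = 0.167). TRAP1 fell by 0.27, BAG5 by 0.19 and CACYBP, a regulator of protein turnover, by 0.14 (limma, adjusted p = 0.0291, 0.0306 and 0.0464). The calls of TRAP1 and BAG5 were lost without any one of Ctrl-sh replicates 1 and 2 and Slc7a5-sh replicates 1 and 2, with adjusted p between 0.0696 and 0.127 there. Both were also lost without the eBayes trend, and that of BAG5 with centred arrays and without the filter. With the mean of its probe sets TRAP1 turned sign, to 0.07 (limma, adjusted p = 0.948). The call of CACYBP was lost in 16 of 19 alternatives. Among them were those without any one Ctrl-sh or Slc7a5-sh array, or C-Myc-sh replicate 2 or 3, with adjusted p between 0.0521 and 0.169.

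Of 15 other tested HSF1 targets, a list that shares genes with those above, 7 rose and 2 fell in Slc7a5-sh and 5 rose and 6 fell in C-Myc-sh. The rises in Slc7a5-sh were 46.7% of the list, where 14.3% of all tested genes rose, while the falls there (13.3%, against 11%) and the rises in C-Myc-sh (33.3%, against 28.7%) were near the background; 26.2% of all fell in C-Myc-sh. ZFAND2A, a proteasome adaptor induced by proteotoxic stress, rose by 0.78 and 0.72 (limma, adjusted p = 1.84e-06 and 1.61e-07). IER5, a cofactor of HSF1, read 10.68, 10.78 and 10.67 in the controls, 11.27, 11.24 and 11.22 in Slc7a5-sh, and 12.52, 12.60 and 12.63 with C-Myc-sh. It rose by 0.54 and 1.88 (limma, adjusted p = 3.28e-05 and 7.65e-12), an order of groups unlike that of HSPA6. Of 8 small heat shock protein genes only HSPB6 was tested, and it passed in neither knockdown.

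Directly between the knockdowns, IER5 (1.34), SIL1 (0.75), DNAJB14 (0.74), DNAJB9 (0.64), DNAJC5 (0.49) and HSPA13 (0.43) were the called genes with the highest changes in C-Myc-sh. DNAJC5 was no longer called in 7 of 18 alternatives. These were quantile normalization, centred arrays, the mean of its probe sets and no eBayes trend. The others were fits without Slc7a5-sh replicate 2 or C-Myc-sh replicate 1 or 3. The lowest were TRAP1 (-1.83), FKBP4 (-1.36), GRPEL1 (-1.14), FKBP5 (-1.03), BAG2 (-0.87) and PPP5C (-0.79); the calls of TRAP1, with the mean of its probe sets, and of PPP5C, without probe sets ending in _s_at or _x_at, were lost.

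**Figure D5:**
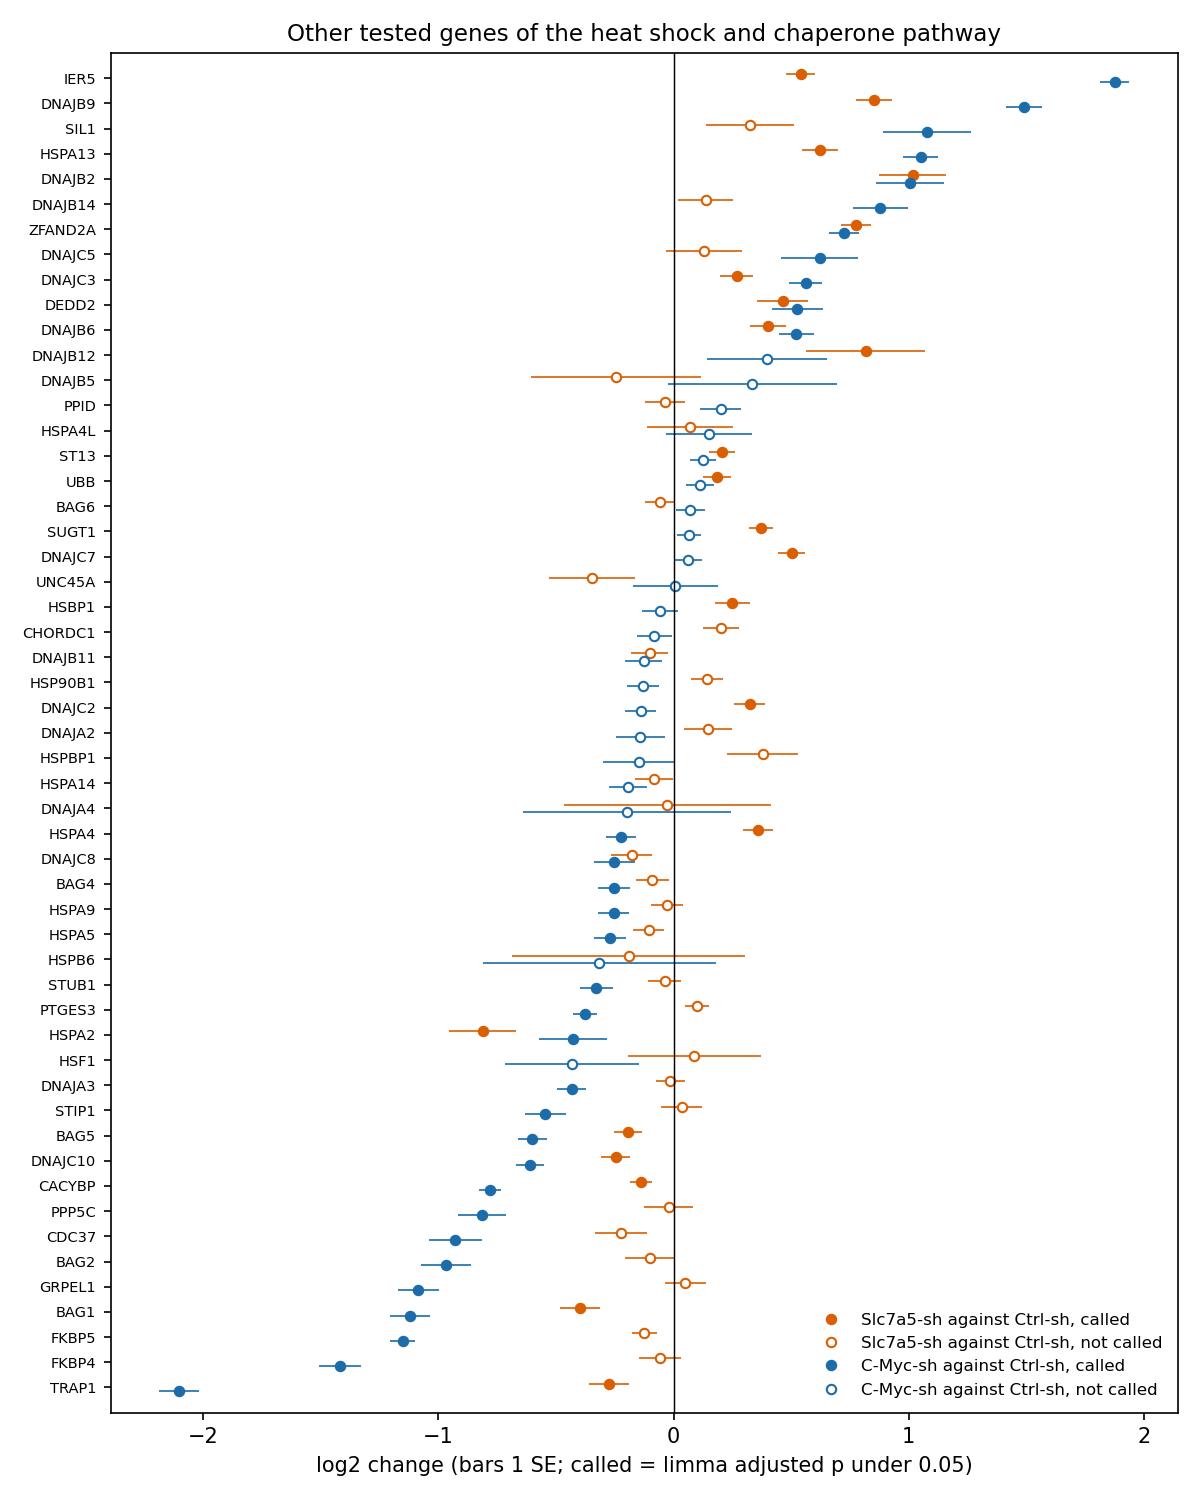
Log2 change against Ctrl-sh (x axis) of the 53 tested pathway genes other than the 10, in Slc7a5-sh and C-Myc-sh. Rows are sorted by the C-Myc-sh change, and filled points were called at an adjusted p under 0.05. In C-Myc-sh TRAP1 is lowest at -2.10, and IER5 is highest at 1.88.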

How the data were processed

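Total RNA of 9 Daudi samples was turned into biotin-labelled cRNA with a 3'-biased kit for short-oligonucleotide arrays, per the labels' protocols. The authors deposited 1 log2 signal per probe set and array, made with MAS5, per the submitters' processing notes (no version given). The linear mean, trimmed by 2% at each end, was 497 on each array, so arrays had been scaled to one target and total RNA per cell cannot be read. Groups and replicate numbers came from the sample titles. Of 54613 probe sets, 41091 carried 1 gene symbol in the platform annotation, and the brightest per gene was kept. Genes at or above the median of probe-set means (5.77) were tested with limma 3.58.1 in R 4.3.3 (3 group means, eBayes with trend, Benjamini-Hochberg over 11250 genes), checked on simulated data. The pathway genes named are those called with the 6 largest changes per direction and comparison, the HSP70 family and HSF1; others were chosen after their values were seen. Members and lists were chosen with earlier results of these data known. Replicate numbers did not pair the arrays. Alternatives covered normalization, filter, probe set choice, test, samples in the fit and each array left out.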

Additional observations from a re-analysis of the deposited data

Results flagged for a closer look

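Probe sets that carry the symbols of several heat shock genes were left out of the comparisons, since their signal cannot be assigned to one gene, but some of them stood above the control arrays. The inducible HSP70 pair is such a case. The probe set annotated with both HSPA1B and HSPA1A read 10.15, 10.24 and 10.03 in Ctrl-sh, 11.23, 11.39 and 11.30 in Slc7a5-sh, and 10.89, 10.83 and 10.84 in C-Myc-sh, changes of 1.16 and 0.72. A probe set that also carries HSPA1L gave 1.09 and 0.65. In both, the 3 groups stood in the same order as for HSPA6. A further probe set with the symbols HSPA1B and HSPA1A was between 0.41 and 5.18 on all arrays, below the filter level, and its groups overlapped. Probe sets annotated with HSPA8, the constitutive HSP70, and 2 small nucleolar RNAs had all Slc7a5-sh arrays above all Ctrl-sh arrays, with mean changes of 0.20, 0.24, 0.12 and 0.12. In C-Myc-sh the changes of the same 4 were 0.0051, -0.04, -0.08 and -0.04, with the arrays of the third wholly below Ctrl-sh. These values are descriptions, and no test was made.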

How the results depend on the processing

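HSPA6 stayed between 3.64 and 4.10 in Slc7a5-sh, and with C-Myc-sh between 1.98 and 2.37, over 18 of 19 alternatives. It had no value with the filter at the 75th percentile (8.71), which its mean of 8.06 did not reach. Of 168 values of the 9 other chaperones in C-Myc-sh against Ctrl-sh, 163 kept direction and side of the threshold; with any array left out 3 to 3 rose and 4 to 4 fell. HSPH1 turned to 0.15 under quantile normalization and was called lower, at -0.24 and -0.53, with the mean of its probe sets and without _s_at and _x_at probe sets, where its Slc7a5-sh value was -0.0143 and -0.28. HSP90AB1 in Slc7a5-sh was -0.0292 with the mean. Between the knockdowns DNAJB1 was -0.0898 with centred arrays, -0.0168 with the mean and -0.0388 to 0.0747 with an array left out, and DNAJA1 was -0.0080 with centred arrays. Pathway genes that rose in Slc7a5-sh numbered 7 with the mean, 10 without _s_at and _x_at probe sets and 12 to 16 with an array left out. All genes that rose there numbered 795 of 10176, 1110 of 8817 and 1313 to 1574 of 11250. Pathway genes that fell in Slc7a5-sh numbered 2 without _s_at and _x_at probe sets, 3 without the eBayes trend and 3 to 8 with an array left out. The falls among all genes were 899 of 8817, 923 of 11250 and 922 to 1237 of 11250. In C-Myc-sh, 11 to 13 pathway genes rose and 20 to 23 fell with an array left out. Of all 11250 genes 2943 to 3296 rose and 2695 to 3000 fell then. Without _s_at and _x_at probe sets 12 pathway genes fell, and 2067 of all 8817. Between the knockdowns 5 pathway genes rose with centred arrays and 7 to 10 with an array left out. Among all 11250 genes 1978 and 2401 to 2731 rose there. With the mean 16 pathway genes fell, 10 without _s_at and _x_at probe sets and 24 to 26 with an array left out. The falls among all genes were 2027 of 10176, 1906 of 8817 and 2598 to 2793 of 11250. Excluding probe sets reduces the genes tested; the cause was otherwise not tested. In Slc7a5-sh, 2843 of all 11250 tested genes were called in the main fit. With the mean of probe sets 795 rose and 786 fell, of 10176 tested.

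With the replicate number as a block, 3 chaperones rose and 4 fell in C-Myc-sh. Then 15 pathway genes rose and 5 fell in Slc7a5-sh, 11 and 21 with C-Myc-sh, and 10 and 25 between the knockdowns. Of all 11250 genes 1570 and 1205 did so in Slc7a5-sh, 3204 and 2943 with C-Myc-sh, and 2723 and 2803 between the knockdowns. Same-numbered arrays correlated at -0.0235 to 0.0179 in their deviations from the group means, and 2 of 9 arrays correlated best with their own number, so the numbers did not pair the arrays. With 3 arrays a group, small changes have wide intervals, and signals near 5.77 limit what can be measured.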
